A study of Mus musculus with 24 samples.

Results

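To describe how brown fat precursor cultures changed between day 4 and day 8 of adipogenic differentiation while EGCG was present, 6 RNA-seq libraries were compared, of 24 in the series. EGCG, epigallocatechin gallate, is the main catechin of green tea. The members were the BAT cells with EGCG collected on day 4 (replicates 1 to 3) and on day 8 (replicates 1 to 3), where BAT is brown adipose tissue. The cells came from the stromal vascular fraction, which holds preadipocytes together with other stromal, immune and vessel cells, of the interscapular BAT of 6-week-old C57BL/6 mice. Each culture received insulin, dexamethasone and IBMX for 4 days and then insulin and the thyroid hormone T3 for 4 days, so that the 2 collection days also differ in medium. The comparison groups were BAT control cells, which received the solvent DMSO in place of EGCG under the same media, and WAT cells with EGCG from the inguinal white fat (WAT, white adipose tissue), each with 3 libraries on day 4 and 3 on day 8. The labels give no dose of EGCG and do not say that replicates were separate isolations, so p-values measure only the spread between these samples, which may be technical.

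White and brown preadipocytes become adipocytes when PPARγ and C/EBP transcription factors switch on the genes of lipid storage. Hormones start the programme, cells leave the cell cycle, and brown cells in addition build many mitochondria and the uncoupling protein UCP1, which turns fuel into heat. EGCG is a polyphenol that oxidizes readily in medium and is widely used as a growth inhibitor and antioxidant in culture.

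Expression was given as FPKM, reads per kilobase of gene length scaled to library depth. Replicates 1 and 2 of all 8 groups are in a table made apart from that of replicate 3, so the test used replicates 1 and 2 and replicate 3 is given for its values and direction. Changes are differences of log2(FPKM + 1), day 8 minus day 4, and understate the change of genes with low FPKM. Genes were called at an adjusted p under 0.05 (limma with Benjamini-Hochberg adjustment over 14095 genes), and a 2-fold change means a difference of at least 1 on that scale. The tested libraries held 39452696 to 52893848 reads on genes. Those of replicate 3 from EGCG-treated brown cells held 18146594 on day 4 and 17261888 on day 8. The depot on the labels was checked by Zic1, a transcription factor of brown precursors, which had 11.1, 10.6 and 10.2 FPKM in the day 4 libraries, against 0.146 ± 0.0113 (SD, n = 2) in WAT cells with EGCG. Ucp1 itself was at 0 in all 3 day 8 libraries, where a count of 0 allows up to 3 reads, and at 0.0139, 0.0247 and 0.101 FPKM on day 4.

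Between day 4 and day 8, genes of DNA replication and mitosis fell together, most chemokine genes and macrophage markers fell, and the adipocyte genes that had been present on day 4 fell rather than rose. Interferon-stimulated genes, contractile genes and several matrix genes rose. In all, 8171 of 14095 genes (58.0%) were called, 4191 higher (29.7%) and 3980 lower (28.2%) on day 8, and the median change of all genes was 0.00. A change of at least 2-fold was called for 465 genes in the higher direction (3.30%) and for 666 in the lower (4.73%). The 3 libraries of day 8 did not overlap with the 3 of day 4 for 8079 genes (57.3%), a count in which replicate 3 comes from the other table on both days. Replicate 3, outside the test, moved in the same direction for 7827 of the 8171 called genes (95.8%) and for 11608 of all 14095 (82.4%). With both tables in 1 fit and the replicate number as a block, 3476 genes were called, or 8828 without replicate 3 of WAT day 8 with EGCG. As 58.0% of all genes were called, the counts below are read against these shares, and the 2-fold counts carry more of the contrast than the calls alone. Of 683 distinct genes on 47 lists, 679 were found in the tables and 639 were tested, 184 of which were called higher and 291 lower. As RNA came from whole cultures, fewer cells of a type and less RNA per cell cannot be told apart.

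**Figure D1:**
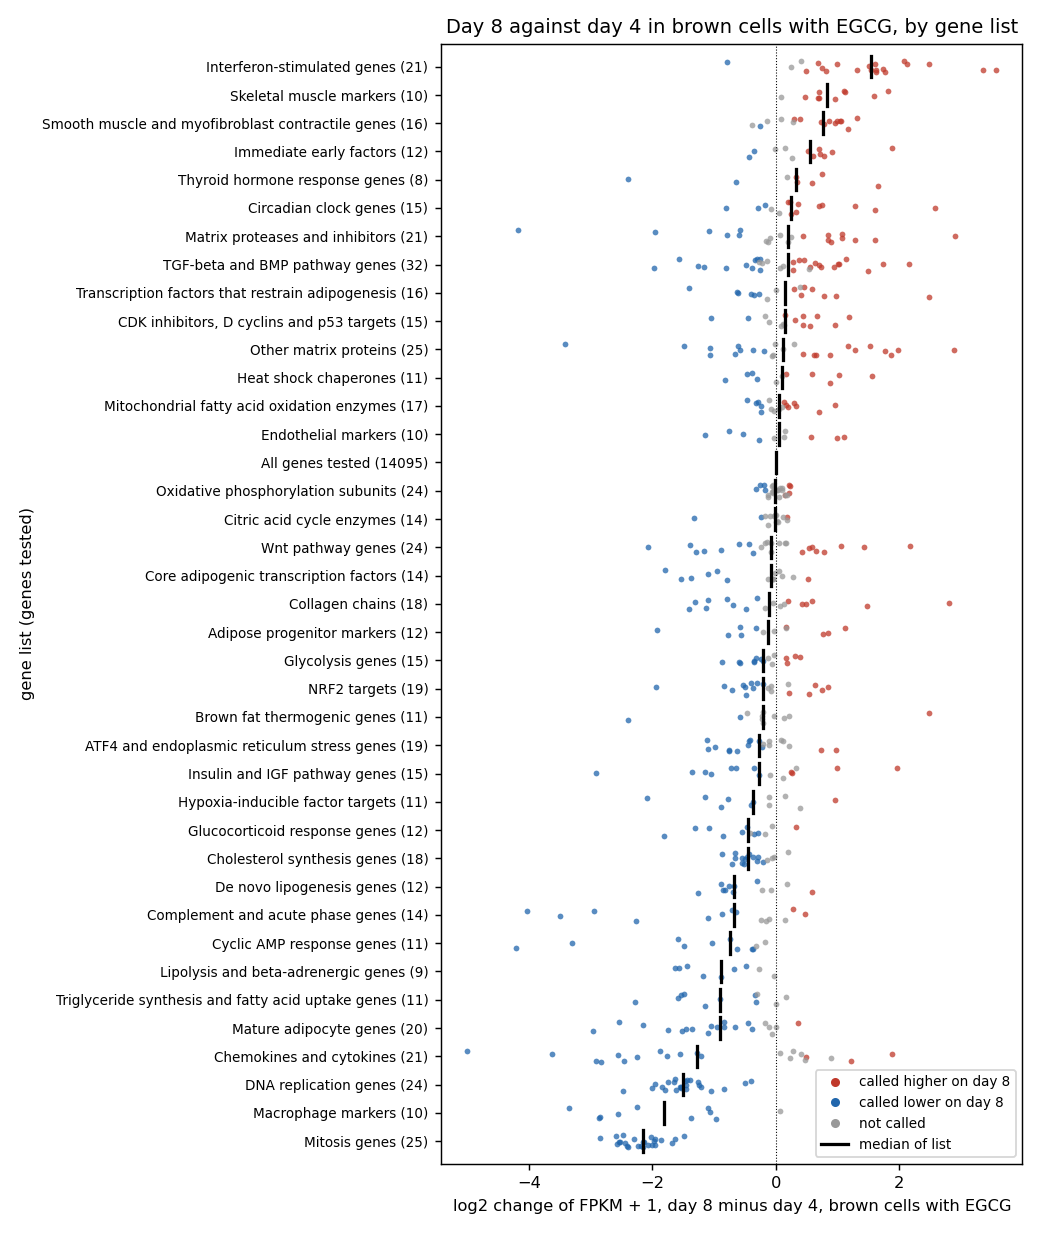
Log2 change of FPKM + 1, day 8 minus day 4, for every tested gene of each list with at least 8 tested genes in brown cells with EGCG. Points are genes, coloured by the call, black bars are list medians, and the lists are ordered by median from mitosis genes (-2.16) to interferon-stimulated genes (1.54), with all 14095 genes at 0.00.

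The machinery of cell division showed the lowest median of all lists. Each of the 25 mitosis genes was called lower and lower by at least 2-fold, with a median of -2.16 and a range from -2.85 to -1.49, where 4.73% of all genes were lower by that much. Top2a encodes the topoisomerase that untangles replicated chromosomes (ENSMUSG00000020914.10, mm9 chr11:98854257-98885503). Its FPKM was 36.8, 39.9 and 35.1 in the day 4 libraries and 4.45, 4.46 and 4.43 in those of day 8. The day 8 libraries lay far below every day 4 library, 8.61-fold lower on average, with a log2 change of -2.85 ± 0.0785 (SE) and an adjusted p of 6.83e-10 in limma. Mki67, the usual marker of cycling cells, went from 14.7, 16.2 and 13.8 FPKM to 1.69, 2.05 and 1.64. Ccnb1, the cyclin that drives entry into mitosis, went from 18.1, 20.6 and 18.4 FPKM to 3.04, 2.68 and 2.68. For neither gene did the days overlap. Hmmr, a spindle-associated protein gene, had the second lowest change of the list at -2.59.

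DNA replication genes had a median of -1.51. All 24 were called lower, 21 of them by at least 2-fold. Mcm2, Mcm3 and Mcm4 encode parts of the helicase that opens DNA for copying, and their log2 changes were -1.21, -1.65 and -1.44. Mcm5, another part of that helicase (ENSMUSG00000005410.4, chr8:77633427-77652338), had 17, 17.5 and 16.8 FPKM on day 4 and 2.04, 2.5 and 2.42 on day 8. That change of -2.48 ± 0.127 (SE), adjusted p = 2.24e-08 in limma, was the largest of the list. Cdc45, which joins the helicase, fell by 2.01 on the log2 scale.

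Regulators of entry into and exit from the cycle moved in both directions. Of 15 tested genes among CDK inhibitors, D cyclins and p53 targets, 8 were called higher and 2 lower, with a median of 0.15. Cdkn1a, the gene of the CDK inhibitor p21 (chr17:29227924-29237667), had 213, 212 and 207 FPKM on day 4 and 481, 489 and 473 on day 8. It was 2.28-fold higher with no overlap of the days (log2 change 1.19 ± 0.0603, SE, adjusted p = 2.13e-08, limma). Ccnd1, cyclin D1, rose by 0.96 as well. The inhibitor genes Cdkn2c and Cdkn1b were the 2 called lower, at -1.04 and -0.44, and Cdkn1c was not called (-0.17).

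To show what the promoters of these genes share, RefSeq windows of 300 bases (250 before to 50 after each start, build GRCm38.p6, unlike the mm9 coordinates given elsewhere) were searched on both strands. The letters TTTGAA (the cell cycle homology region) and CCAAT (the CCAAT box) are known to occur together in mitosis genes, and the E2F site was searched in the form GCGGGAA and in a further form written TGGCGCC. In the stretches below, printed 5′ to 3′ on the strand of the gene, capitals mark both motifs and their reverse complements. Mki67 is shown from chr7:135716470-135716569, Top2a from chr11:99024202-99024421 and Ccnb1 from chr13:100786518-100786617, all 3 on the minus strand. They were chosen because they are the first genes of the mitosis list.
Mki67: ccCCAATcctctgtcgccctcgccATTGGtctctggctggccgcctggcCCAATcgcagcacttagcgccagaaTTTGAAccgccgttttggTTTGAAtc
Top2a: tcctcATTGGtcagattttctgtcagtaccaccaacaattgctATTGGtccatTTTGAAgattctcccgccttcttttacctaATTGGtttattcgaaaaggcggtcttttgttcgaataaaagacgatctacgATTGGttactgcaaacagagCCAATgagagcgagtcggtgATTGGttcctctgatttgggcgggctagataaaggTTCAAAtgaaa
Ccnb1: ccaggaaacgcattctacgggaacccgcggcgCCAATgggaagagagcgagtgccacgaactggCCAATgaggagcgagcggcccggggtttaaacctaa

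Mki67 held 5 matches and Top2a 8, of both kinds, while the 2 matches of Ccnb1 were both CCAAT. Windows were found for 21 of the 25 mitosis genes. TTTGAA was in 15 of the 21 (71.4%), against 20.2% of all 27025 genes with a window, and CCAAT was in 17 (81.0%), against 41.1%. GCGGGAA was in none of them and TGGCGCC in 2 (9.52%, against 4.66%). In the 19 replication genes with a window, of 24, GCGGGAA was in 8 (42.1%, against 5.29% of all genes), TGGCGCC in 3 (15.8%), CCAAT in 13 (68.4%) and TTTGAA in 2 (10.5%). A match describes the sequence only.

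Interferon-stimulated genes had the highest median of all lists, 1.54, against 1.14 in the control and 1.35 in white cells with EGCG. Cells induce these genes when interferons or viral nucleic acids activate STAT and IRF factors. Of 21 tested, 18 were called higher and 14 by at least 2-fold, where 3.30% of all genes were higher by that much. Isg15 encodes a ubiquitin-like protein (ENSMUSG00000035692.6, chr4:155573533-155574927). It had 1.45, 1.56 and 2.70 FPKM on day 4 and 26.3, 31.4 and 22 on day 8. Every day 8 library lay above every day 4 library, 19.2-fold higher on average (log2 change 3.57 ± 0.157, SE, adjusted p = 8.14e-09, limma).

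Ifit3, one of the interferon-induced genes whose proteins bind foreign RNA (chr19:34658021-34663221), had 0.692, 0.570 and 0.821 FPKM on day 4 and 12.1, 20.4 and 13.2 on day 8. Its log2 change was 3.36 ± 0.366 (SE) with an adjusted p of 1.02e-05 in limma. Ifit1 went from 0.377, 0.588 and 0.457 FPKM to 4.62, 11.1 and 4.10. Replicate 2 of day 8 stood above the other 2 libraries of that day for all 3 genes. Ifit2 rose by 1.61. Among the rest, Mx1 (0.25) and Ifi44 (0.41) were not called, at under 0.4 FPKM in every library of brown cells with EGCG. Irf1, a transcription factor of the pathway, was the 1 gene called lower, from 7.91, 9.40 and 10.6 FPKM to 4.24, 4.99 and 5.50. The Ifit genes resemble each other in sequence, so that reads could be split between them.

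The promoter stretches of these 3 genes are shown because the genes had the 3 highest changes of the list. Capitals mark matches to GAAANNGAAA, the core of the interferon-stimulated response element, or its reverse complement. This motif was added after values had been seen. Isg15 is from chr4:156200836-156200935 (minus strand), Ifit3 from chr19:34583345-34583444 and Ifit1 from chr19:34640749-34640848 (both plus strand), all RefSeq, GRCm38.p6.
Isg15: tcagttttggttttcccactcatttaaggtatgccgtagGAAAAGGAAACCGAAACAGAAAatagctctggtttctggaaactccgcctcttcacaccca
Ifit3: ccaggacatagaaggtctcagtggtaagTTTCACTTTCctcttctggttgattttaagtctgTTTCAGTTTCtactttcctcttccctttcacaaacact
Ifit1: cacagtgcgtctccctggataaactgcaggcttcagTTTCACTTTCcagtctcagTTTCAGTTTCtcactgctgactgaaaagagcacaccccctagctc

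The Isg15 stretch held 3 overlapping matches, and those of Ifit3 and Ifit1 held 2 each, apart from one another. Of 22 listed interferon genes, 17 had a window, and 11 of them held the motif (64.7%, against 3.99% of all genes).

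**Figure D2:**
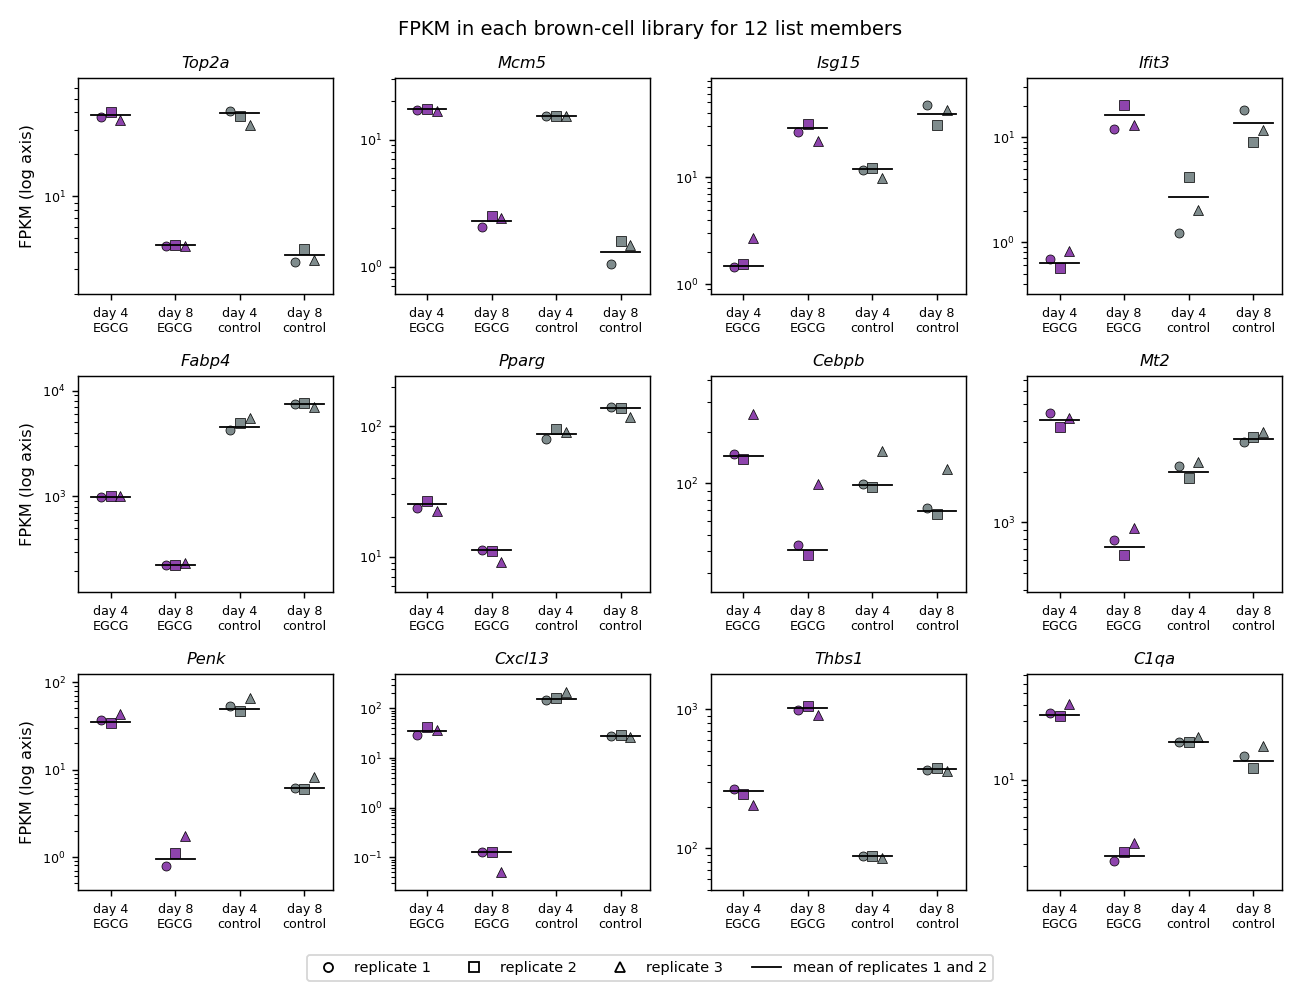
FPKM on a log axis in each brown-cell library for 12 list members, with EGCG (purple) and in the control (grey). Symbols give the replicate and bars the mean of replicates 1 and 2. The 12 genes were picked without a rule. In every panel the 3 day 8 libraries with EGCG lie apart from the 3 of day 4, which held for 57.3% of all genes tested.

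Several transcription factors of adipogenesis fell on day 8. Of 14 tested, 6 were called lower, 4 of them by at least 2-fold, 1 was called higher and 7 were not called, with a median of -0.08. Pparg, the master factor of fat cells (ENSMUSG00000000440.6, chr6:115311239-115440419), had 23.6, 26.7 and 22.4 FPKM on day 4 and 11.3, 11.1 and 9.17 on day 8. Its levels did not overlap and were 2.24-fold lower (log2 change -1.09 ± 0.105, SE, adjusted p = 3.69e-06, limma). In the control the mean FPKM went the other way, from 86.8 to 138. Cebpa, its partner in mature cells, fell from 72.7, 77.5 and 90.7 FPKM to 27.3, 29.2 and 35.4. Cebpb, an early inducer that overlaps Tmem189 in the annotation, fell from 148, 139 and 256 FPKM to 43.2, 37.9 and 98.6, and Klf15 fell by 1.53. Replicate 3, from the other table, had the highest Cebpb value of each day. Ebf2, a factor that opens brown fat genes, was the 1 gene higher, at 0.52.

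Most mature adipocyte genes fell. Of 20 tested, 15 were called lower, 9 by at least 2-fold, and the median was -0.90, against 1.09 in the control. Fabp4, the fatty acid carrier of adipocytes (ENSMUSG00000062515.2, chr3:10204347-10208576), had 993, 1003 and 1016 FPKM on day 4 and 225, 223 and 234 on day 8. The libraries of a day were nearly level and the days differed 4.46-fold (log2 change -2.15 ± 0.0983, SE, adjusted p = 1.05e-08, limma). Adipoq, the adiponectin gene, went from 66.3, 69.2 and 66.3 FPKM to 38.7, 36.1 and 37.7. Plin1, a lipid droplet coat gene, went from 44.4, 46.7 and 40.5 to 13.5, 12.3 and 10.1. Among the lowest were Cidec, which fuses lipid droplets, at -2.97 and Acsl1, which activates fatty acids, at -2.55. Lep, the leptin gene, was the 1 gene called higher, yet remained under 0.6 FPKM in every library of brown cells with EGCG (0.0419, 0.0809 and 0.118 against 0.4, 0.342 and 0.569).

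Most enzymes of fat synthesis and breakdown fell too. Of 12 de novo lipogenesis genes, 8 were called lower and 1 higher (median -0.68). Fasn, fatty acid synthase, fell by 0.83, Acaca, which makes its substrate, by 0.89, and Acly by 0.76. Scd1, the desaturase, had 529, 491 and 466 FPKM on day 4 and 214, 209 and 195 on day 8. Me1, the malic enzyme, was the 1 gene higher (0.58). Triglyceride synthesis and uptake genes had 8 of 11 called lower, 5 by at least 2-fold, with a median of -0.90. Dgat2, the last enzyme of triglyceride synthesis, went from 33.6, 35.9 and 40.7 FPKM to 6.17, 6.52 and 7.21. That was a 5.48-fold decrease (log2 change -2.28 ± 0.0933, SE, adjusted p = 5.58e-09, limma). Lipolysis and beta-adrenergic genes had 7 of 9 called lower (median -0.89). Adrb3, the adrenergic receptor that signals lipolysis in fat, went from 11, 11.6 and 13.1 FPKM to 4.5, 4.35 and 4.83, and G0s2, an inhibitor of lipolysis, fell by 1.63.

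The thermogenic programme of brown fat was nearly silent on both days. Of 16 listed genes 11 passed the filter, 8 of which were not called, among them Cidea (-0.21) and Cox7a1 (0.21). Cox7a1, a cytochrome oxidase subunit of brown fat and muscle, had 2.63, 2.67 and 3.18 FPKM on day 4 and 2.87, 3.64 and 4.30 on day 8, where the days overlapped. In the control its mean went from 3.21 to 191. Dio2, the enzyme that activates thyroid hormone, was called lower (5.18, 5.97 and 4.64 FPKM to 0.22, 0.280 and 0.419, log2 change -2.39), as was Ppargc1a, a regulator of mitochondrial genes (-0.58). Fabp3, a fatty acid carrier of muscle that overlaps Zcchc17, was the 1 gene called higher. It had 1.47, 0.468 and 1.21 FPKM on day 4 and 9.44, 9.97 and 10.5 on day 8 (log2 change 2.49 ± 0.254, SE, adjusted p = 5.84e-06, limma). Depot identity genes moved by less than 2-fold and in both directions. Of 4 tested brown identity genes, Zic1 (-0.41) and Lhx8 (-0.76) were called lower, Ebf2 (0.52) higher, and Prdm16 (0.07) was not called. Of 4 tested white identity genes, Hoxc8 (0.69) and Hoxc9 (0.45) were called higher, Nnat (-0.77) lower, and Hoxc10 (-0.01) was not called. The median of the white identity genes, 0.22, changes sign with voom.

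Mitochondrial genes stayed near their day 4 levels. Of 24 oxidative phosphorylation subunits, 4 were called higher and 4 lower, none by 2-fold, and the range was -0.31 to 0.23 around a median of -0.01 that took either sign with 1 library left out. Ndufs1, a complex I subunit, had 25.6, 26 and 29.8 FPKM on day 4 and 28.5, 27 and 30.8 on day 8. Citric acid cycle enzymes had 1 of 14 called higher and 2 lower (median -0.01), among them Pcx, pyruvate carboxylase, which fell by 1.33. Fatty acid oxidation enzymes had 7 of 17 called higher and 5 lower (median 0.05), led by Acot2 (0.96) and Cpt1a (0.70), the carnitine transferase that admits fatty acids to mitochondria. In the control the medians of these 3 lists were 0.83, 0.97 and 1.09.

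Hypoxia and sterol genes were mostly lower. Glycolysis had 8 of 15 called lower and 4 higher (median -0.20), from Pfkl at -0.87 to Hk1 at 0.39. With quantile normalization 6 were lower and 4 higher, around a median of -0.05. Hypoxia-inducible factor targets had 6 of 11 lower and 1 higher (median -0.37). Within that list Ddit4, a stress gene that restrains mTOR, had 215, 203 and 170 FPKM on day 4 and 49.0, 48.1 and 42.3 on day 8 (log2 change -2.08), whereas Adm, the adrenomedullin gene, rose from 81.6, 80.2 and 77.6 to 159, 158 and 174. The 2 genes moved in opposite directions with no overlap of their days. Cholesterol synthesis genes had 14 of 18 called lower and none higher, none by 2-fold (median -0.46). Idi1, which makes an early building block of the pathway, had the lowest change (-0.87).

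Metallothioneins, the proteins that bind zinc and copper, fell by a wide margin. Mt1 (chr8:96702989-96704225) had 3143, 2733 and 3091 FPKM on day 4 and 800, 640 and 944 on day 8. Mt2 (ENSMUSG00000031762.6, chr8:96696518-96697467) had 4424, 3650 and 4125 FPKM on day 4 and 787, 638 and 922 on day 8. It was 5.67-fold lower, with a log2 change of -2.50 ± 0.144 (SE) and an adjusted p of 5.47e-08 in limma. In the control both means were higher on day 8, 1453 to 2503 FPKM for Mt1 and 1999 to 3101 for Mt2. Slc30a1, the zinc exporter, fell by 0.38. The genes lie next to each other and are alike in sequence.

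The windows of these genes held TGCACNC, the core of the metal response element, in 3 of the 3 genes of the list (14.2% of all genes). The stretches are shown because the list has only these members with large changes. Capitals mark the motif or its reverse complement on the plus strand, from chr8:94172390-94172579 for Mt2 and from chr8:94178989-94179088 for Mt1 (RefSeq, GRCm38.p6).
Mt2: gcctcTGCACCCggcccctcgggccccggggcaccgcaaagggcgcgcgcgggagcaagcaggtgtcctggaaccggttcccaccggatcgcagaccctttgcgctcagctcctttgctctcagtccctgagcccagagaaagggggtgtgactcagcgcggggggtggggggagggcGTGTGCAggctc
Mt1: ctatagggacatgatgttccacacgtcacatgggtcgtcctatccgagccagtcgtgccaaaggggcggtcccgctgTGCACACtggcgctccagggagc

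Both matches of the Mt2 window and 1 of the 2 of Mt1 lie before the start and are shown. The remaining stress genes moved in both directions. NRF2 targets, the antioxidant set, had 5 of 19 called higher and 10 lower (median -0.21), with Nqo1 (-0.07) and Hmox1 (-0.12) not called. Fth1, the ferritin heavy chain, fell from 6053, 6299 and 7385 FPKM to 1602, 1630 and 1972, a log2 change of -1.93, while Gstm1, a glutathione transferase, rose by 0.84. ATF4 and endoplasmic reticulum stress genes had 2 of 19 higher and 11 lower (median -0.27). The 2 higher were the transcription factor genes Ddit3 (0.97) and Atf3 (0.73), and the lowest were Psat1 (-1.12) and Mthfd2 (-1.10), enzymes of serine and folate metabolism. Heat shock chaperones had 5 of 11 higher and 4 lower. Hspa1b rose from 6.96, 6.92 and 6.90 FPKM to 21, 24.1 and 22.8, though its reads may be shared with its near copy Hspa1a (0.88), and the small chaperone gene Cryab rose by 1.02.

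Hormone response genes were examined because the medium changed from dexamethasone and IBMX to T3 between the days in every group. The medium and the day cannot be told apart. Glucocorticoid response genes had 8 of 12 called lower and 1 higher (median -0.44, against 0.74 in the control), including Fkbp5 (-1.07), a chaperone induced by glucocorticoids, Zbtb16 (-1.81) and Pdk4 (-1.30). Cyclic AMP response genes had 9 of 11 called lower and none higher (median -0.74, control -0.86). Rgs2, a brake on G protein signalling (chr1:145846468-145851291), had 22.5, 24 and 26.6 FPKM on day 4 and 1.55, 1.38 and 1.44 on day 8. It was 15.9-fold lower, and the log2 change of -3.30 ± 0.0678 (SE) had an adjusted p of 2.13e-10 in limma. Thyroid hormone response genes had 5 of 8 called higher and 2 lower (median 0.34, control 1.73). Hr, a corepressor gene induced by T3, rose from 0.642, 0.655 and 0.639 FPKM to 4.18, 4.19 and 4.58, and in the control its mean went from 0.322 to 21.2.

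Clock, growth factor and early response genes were mixed. Clock genes had 10 of 15 called higher and 3 lower (median 0.25). Dbp, a clock output factor that overlaps Sphk2, rose from 1.78, 1.46 and 2.56 FPKM to 15.1, 14.2 and 18.5 (log2 change 2.58 ± 0.0701, SE, adjusted p = 6.83e-10, limma), and Bhlhe41 rose by 1.61. The labels give no hour of collection. Insulin and IGF genes had 4 of 15 higher and 8 lower. Igfbp4, a binding protein that restrains IGF, fell from 608, 703 and 856 FPKM to 91.3, 80.6 and 102 (log2 change -2.92), while its relative Igfbp5 rose from 59.5, 62.6 and 81.8 to 254, 227 and 187. Immediate early factors had 7 of 12 higher and 2 lower (median 0.56). Fos rose from 37.4, 39.1 and 36.7 FPKM to 71.8, 73.1 and 69.7, and Egr3 rose by 1.89.

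Matrix genes moved in both directions. Collagen chains had 6 of 18 called higher and 8 lower, with a median of -0.10 that changes sign under quantile normalization. The fibrillar chain genes Col1a1 (676, 673 and 835 FPKM to 646, 667 and 748) and Col1a2 were not called, while Col3a1 fell from 2836, 3166 and 3353 to 1171, 1096 and 1091. Col8a1, a short chain collagen of vessels (chr16:57624371-57754850), rose from 15.9, 14.7 and 14.3 FPKM to 108, 119 and 87.9. This 7.42-fold increase had a log2 change of 2.81 ± 0.127 (SE) and an adjusted p of 9.59e-09 in limma. Other matrix proteins had 11 of 25 higher and 9 lower (median 0.11), from Aspn, asporin, at 2.89 to Fbln1, fibulin 1, at -3.42, with Thbs1, thrombospondin 1, at 1.99. Aspn overlaps Cenpp in the annotation.

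Matrix proteases and inhibitors had 9 of 21 called higher and 6 lower (median 0.21). Timp3, a matrix-bound inhibitor that overlaps Syn3, had 46.8, 44.3 and 37.0 FPKM on day 4 and 342, 355 and 278 on day 8. Mmp3, stromelysin (chr9:7445822-7455972), had 151, 190 and 183 FPKM on day 4 and 9.38, 7.52 and 8.83 on day 8. Mmp3 was 20.1-fold lower (log2 change -4.18 ± 0.208, SE, adjusted p = 1.85e-08, limma), and Mmp9 fell by 1.96. Contractile genes of smooth muscle and myofibroblasts had 11 of 16 called higher, 4 by at least 2-fold, and 1 lower (median 0.76, control 1.48). Acta2, smooth muscle actin (chr19:34315580-34329826), rose from 447, 357 and 357 FPKM to 755, 841 and 989, and the calponin gene Cnn2 rose by 1.32.

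Signalling genes of the stroma split. Progenitor markers had 4 of 12 higher and 5 lower, from Anxa3 (1.12) to Cd24a (-1.92), and Pdgfra, the marker of fat precursors, was not called (-0.21). Transcription factors that restrain adipogenesis had 7 of 16 higher and 6 lower (median 0.15). Klf2 rose from 2.10, 1.55 and 2.09 FPKM to 14.4, 15.2 and 18.2 (log2 change 2.49), and Id2 fell by 1.40. Wnt pathway genes had 8 of 24 in each direction (median -0.08). Wisp1, a secreted Wnt target, rose from 14.7, 14.4 and 12.7 FPKM to 68.1, 70.6 and 61.1 (log2 change 2.18), Wnt10b, a ligand that blocks adipogenesis, rose by 1.05 from under 0.3 FPKM, and the antagonist Sfrp2 fell by 2.06. TGF-beta and BMP genes had 15 of 32 higher and 11 lower (median 0.20). The ligand genes Tgfb1 (0.37), Tgfb2 (0.29) and Tgfb3 (1.01) were all called higher. Ctgf, a TGF-beta target and matricellular protein, rose from 148, 127 and 164 FPKM to 601, 627 and 972, while Gdf10 fell by 1.97 and the coreceptor gene Tgfbr3 by 1.57.

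Most secreted immune genes fell. Chemokines and cytokines had 12 of 21 called lower, all 12 by at least 2-fold, and 3 higher (median -1.27, control -1.14). Their summed FPKM went from 939, 917 and 826 on day 4 to 755, 799 and 780 on day 8. In the control the sum went from 724, 656 and 716 to 297, 312 and 301. Cxcl13, the chemokine that attracts B cells (ENSMUSG00000023078.4, chr5:96385945-96390086), had 28.6, 42.8 and 36.9 FPKM on day 4 and 0.127, 0.129 and 0.0493 on day 8. Its log2 change of -5.00 ± 0.416 (SE), adjusted p = 1.09e-06 in limma, was the lowest of all named genes, and 7 and 8 reads were left in replicates 1 and 2 of day 8. Cxcl5, which attracts neutrophils, fell by 3.63. Ccl8 (2.45, 2.42 and 1.62 FPKM to 12.4, 11.1 and 11.7), Lif (1.22) and Csf1 (0.49) were the 3 called higher. Complement and acute phase genes had 8 of 14 called lower and 2, C4b (0.29) and C1ra (0.47), higher (median -0.68, control 1.01). C3 went from 26.1, 34.0 and 29.1 FPKM to 5.55, 5.26 and 6.13, Saa3 from 160, 251 and 198 to 12.7, 10.2 and 7.96, and Lcn2 from 45.1, 46.5 and 49.0 to 3.65, 2.70 and 3.92.

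Macrophage markers moved with these genes. Of 12 listed, 10 were tested, 9 were called lower (8 by at least 2-fold) and Cd14 was not called. Their summed FPKM was 480, 436 and 525 on day 4 and 67.1, 68.1 and 67.5 on day 8, against 205 to 230 and 150 to 166 in the control. C1qa, a complement subunit made by macrophages, went from 34.5, 32.9 and 41.1 FPKM to 2.22, 2.62 and 3.06 (log2 change -3.35), Cd68 fell by 1.09, Emr1, the F4/80 gene, by 1.37 and Csf1r by 0.96. The day 8 libraries were lower for each of these, and no defining marker was at 0. Their part in the change of the chemokine, complement and other lists was not tested.

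Markers of other cells moved less. Skeletal muscle markers had 9 of 10 tested called higher (median 0.84), and their summed FPKM was 30.6, 38.3 and 45.7 on day 4 and 66.5, 66.8 and 92.7 on day 8. They included Actc1 (1.82), Mb (1.59) and Myog (0.97), each under 7 FPKM in every library. Schwann cell markers had 5 of 6 higher, with summed FPKM of 95.8, 106 and 127 on day 4 and 184, 175 and 165 on day 8, led by Cdh19 (1.39) and S100b (1.34). Endothelial markers had 3 of 10 higher and 4 lower (summed FPKM 60.5 to 66.4 against 55.4 to 59.5), and mural markers 2 of 6 higher and 4 lower. Mesothelial markers had 2 of 6 higher, Msln (1.29) and Krt19 (1.20). MHC class II genes had 1 of 4 in each direction, and none of the 6 lymphocyte markers passed the filter. The part of these cells in the changes of contractile, matrix or other lists was not tested.

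The 12 highest and 12 lowest changes among called genes with a mean of at least 5 FPKM on the higher day and 1 direction in the 3 replicates were then listed. Among the 12 highest, 9930013L23Rik had 4.99, 4.01 and 4.18 FPKM on day 4 and 65.9, 74.6 and 57.1 on day 8 (chr7:91081367-91235012, log2 change 3.70 ± 0.236, SE, adjusted p = 1.22e-07, limma). Nov, a matricellular protein of the CCN family, rose by 3.22, Itgbl1 by 3.07, D0H4S114 by 2.83, C1qtnf3, a secreted C1q and TNF related protein, by 2.71 and A730020M07Rik by 2.66. C1qtnf2 had 0.0376, 0.218 and 0.0455 FPKM on day 4, which were 2 and 13 reads in replicates 1 and 2, and 6.81, 6.26 and 6.70 on day 8. Isg15, Ifit3, Timp3, Aspn and Col8a1 complete the 12.

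Penk, the precursor of enkephalin peptides and a gene that cyclic AMP induces (chr4:4060678-4065966), followed Cxcl13 among the 12 lowest. It had 36.5, 33.6 and 42.6 FPKM on day 4 and 0.781, 1.12 and 1.72 on day 8, a 36.9-fold decrease (log2 change -4.21 ± 0.133, SE, adjusted p = 1.67e-09, limma). Its range overlaps A830012C17Rik. The others were Mmp3, Saa3, 6030408B16Rik (-4.00), the protease inhibitor genes A2m (-3.72) and Serpina3m (-3.65), Tnfsf11, the cytokine RANKL (-3.70), Cxcl5, Lcn2 (-3.50), 2610109H07Rik, which overlaps Mad2l2 (-3.45), and Fbln1. For all 24 genes the 3 libraries of a day lay apart from the 3 of the other, against 57.3% of all genes tested. As the 24 were chosen from these libraries for large changes in 1 direction, this separation follows largely from the choice.

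**Figure D3:**
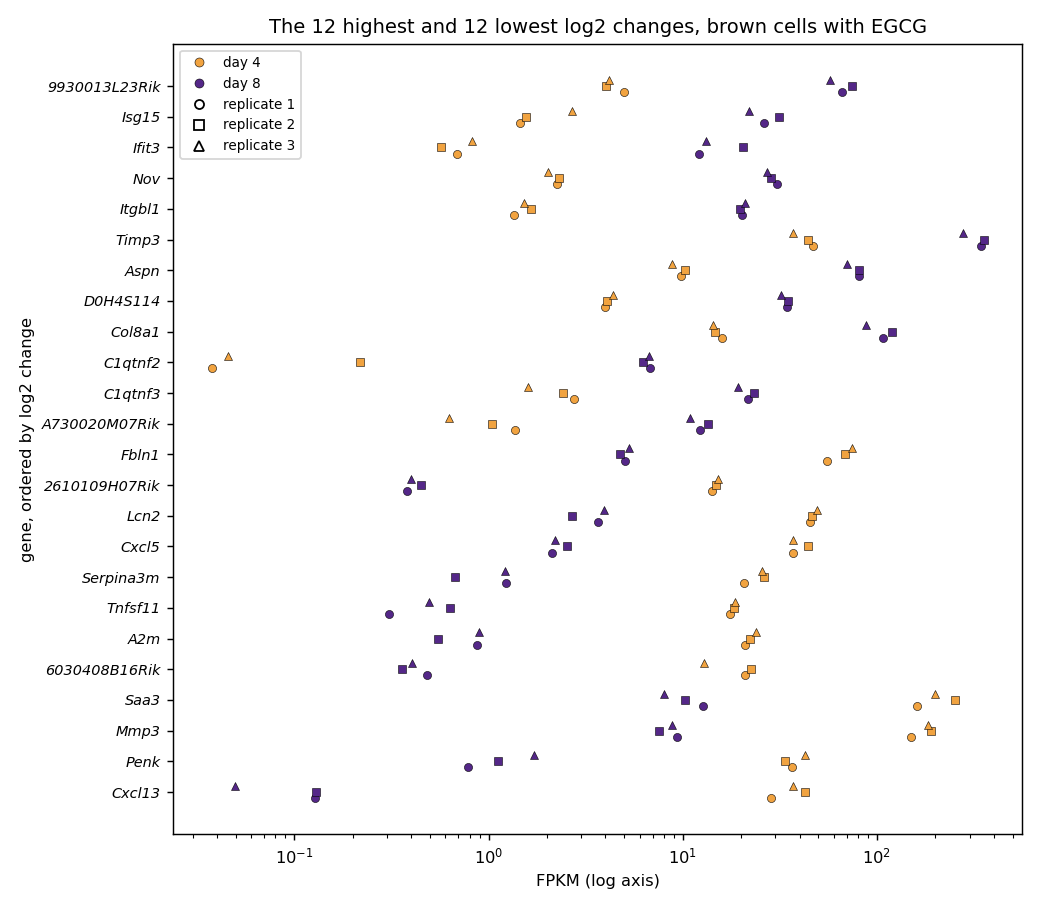
FPKM on a log axis in the 6 libraries of brown cells with EGCG for the 24 named genes at both ends of the log2 change, ordered from Cxcl13 (-5.00) to 9930013L23Rik (3.70). Orange is day 4 and purple day 8, and symbols give the replicate. The 2 colours do not overlap for any gene, in a set chosen from these libraries for its large changes.

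To ask which of these changes differed from those in BAT control cells, the difference of the day changes was tested as an interaction. It was called for 7803 genes (55.4%), 4897 with a higher change under EGCG (34.7%) and 2906 with a lower one (20.6%), around a median of 0.13. At a difference of at least 2-fold the balance turned, with 444 higher (3.15%) and 1000 lower (7.09%). With median-ratio scaling, which set that median to 0.01, 3535 were higher and 3636 lower, so the split of directions depended on the scaling. With quantile normalization 4457 were higher and 3075 lower. This comparison and that with white cells use the same libraries of brown cells with EGCG. The count with all 24 libraries and the replicate block was 2205, 843 higher and 1362 lower.

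Most adipocyte and mitochondrial genes had a lower day change under EGCG. The difference was called lower for 19 of 20 mature adipocyte genes, 12 of 12 lipogenesis genes, 9 of 9 lipolysis genes, 24 of 24 oxidative phosphorylation subunits, 13 of 14 citric acid cycle enzymes and 15 of 15 glycolysis genes, and called higher for none of these. Fatty acid oxidation enzymes had 16 of 17 lower and 1 higher, and triglyceride and uptake genes 9 of 11 lower and 1 higher. Adipogenic factors had 9 of 14 lower and 2 higher, and thermogenic genes 8 of 11 lower and 2 higher. Fabp4 had 4219, 4918 and 5456 FPKM on day 4 of the control and 7489, 7602 and 7034 on day 8, so that its change differed by -2.88 on the log2 scale (adjusted p = 4.37e-08, limma). Cox7a1 had 2.87, 3.54 and 3.43 FPKM on day 4 of the control and 191, 190 and 176 on day 8, a difference of -5.30. Of the 5 lowest differences named, Aspg (-5.67), an asparaginase gene, was not called within EGCG-treated cells. Rbp4 (-5.33), the retinol carrier, went from 34.5, 41.8 and 56.7 FPKM to 298, 309 and 326 in the control and from 14.1, 15.7 and 19.6 to 2.01, 2.17 and 2.42 with EGCG. 8430408G22Rik (-5.40) and Selenbp1 (-5.17) also moved in opposite directions in the 2 groups.

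Cell cycle genes had negative median changes in both. The median change of the mitosis genes was -2.44 in the control, and the difference was called higher for 8 of 25 and lower for none. Of the 24 replication genes 9 were called higher and 3 lower. For both lists the share called higher lay near the 34.7% of all genes in this comparison. For Top2a the difference was 0.23 (adjusted p = 0.10, limma), with 41.0, 37.8 and 32.5 FPKM on day 4 of the control and 3.39, 4.21 and 3.50 on day 8. Interferon genes had 7 of 21 called higher, near the 34.7% of all genes, and 1 lower. Their median difference was 0.18, against 0.13 for all genes. Isg15 began at 11.8, 12.3 and 9.92 FPKM in the control and reached 46.9, 30.8 and 42.9, so the larger change under EGCG (difference 1.99, adjusted p = 1.72e-05, limma) started from a lower day 4 level. Cholesterol genes had 13 of 18 higher, with a control median of -0.89. Glucocorticoid genes had 12 of 12 lower, metallothioneins 2 of 3 and macrophage markers 9 of 10. Skeletal muscle markers had 5 of 10 lower and none higher. Chemokines and cytokines had 10 of 21 higher and 5 lower.

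Among the highest differences, Prl2c2, a placental hormone of the proliferin family, had 46.1, 38.3 and 33.1 FPKM on day 4 of the control and 0.430, 0.149 and 0.0666 on day 8, against 57.0, 61.8 and 64.2 and 26.1, 32.5 and 31.1 with EGCG (difference 4.07). Reads of this family can be shared with near copies such as Prl2c3. Fabp3 (3.00), Igfbp5 (2.94) and Hist1h4n (2.85) rose with EGCG and were lower on day 8 of the control, and Peg10 (2.70), an imprinted gene, fell by 0.37 with EGCG and by 3.07 in the control.

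**Figure D4:**
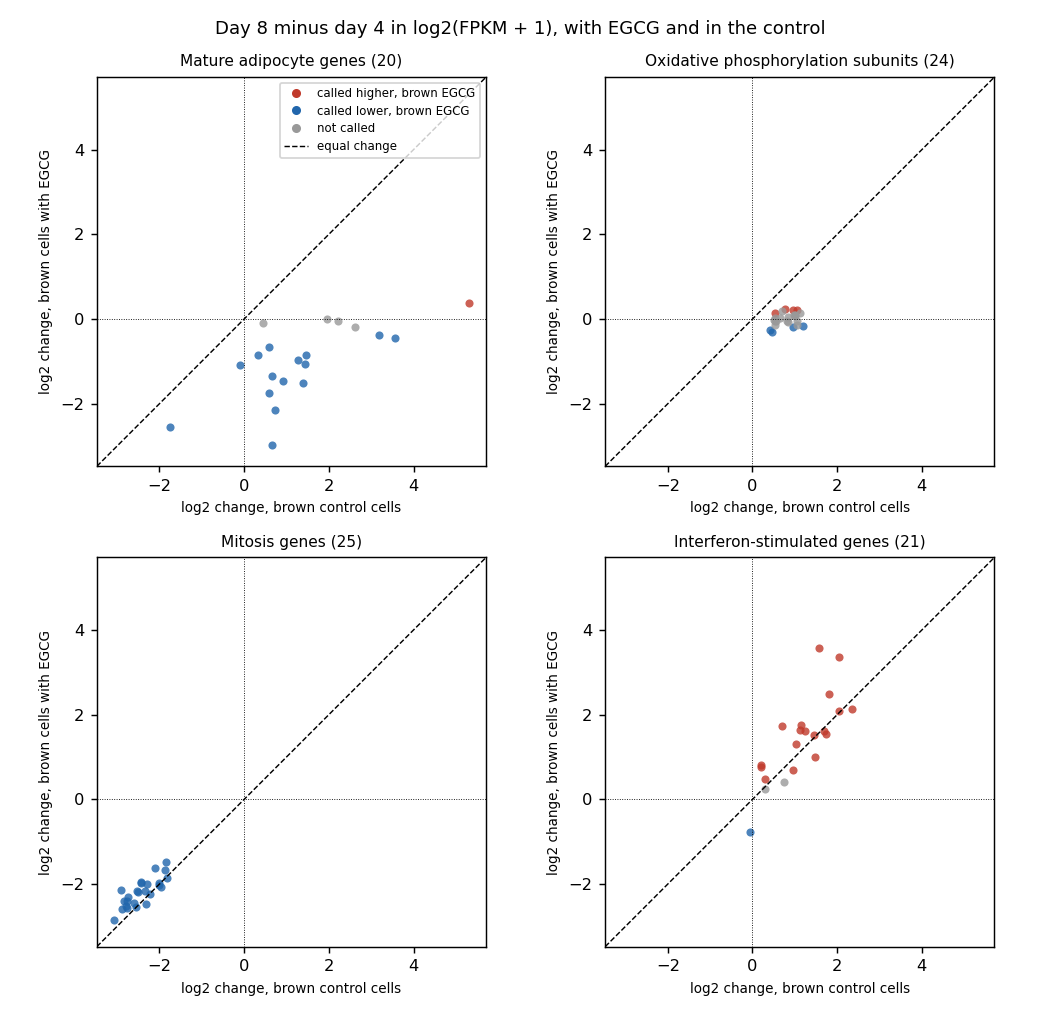
Log2 change of FPKM + 1, day 8 minus day 4, in brown cells with EGCG (vertical axis) against brown control cells (horizontal axis) for the genes of 4 lists. Points are genes coloured by the call under EGCG and the dashed line marks equal change. All 24 oxidative phosphorylation subunits lie below the line near 0 on the vertical axis, and the 25 mitosis genes lie along it.

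To ask which changes differed between the depots, the difference from WAT cells with EGCG was tested in the same way. It was called for 2816 genes (20.0%), 1011 higher in BAT (7.17%) and 1805 lower (12.8%), around a median of -0.03. With quantile normalization 1377 were higher and 1480 lower. Replicate 3 of WAT day 8 with EGCG, which had 61.0% of its reads in 5 genes, was not in the test, and the count with all 24 libraries and the replicate block was 633. Without that library it was 3660.

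Cell cycle genes fell further in brown than in white cells. The difference was called lower for 25 of 25 mitosis genes (median -2.16 against -1.06) and 23 of 24 replication genes. Top2a had 14.2, 15.5 and 13.6 FPKM on day 4 in WAT cells with EGCG, below the brown cells, and 4.01, 3.71 and 1.53 on day 8 (difference -1.14, adjusted p = 5.8e-05, limma). Immediate early factors went in opposite directions, with 10 of 12 differences called higher (median 0.56 against -1.10). Fos had 26.9, 20.9 and 25.4 FPKM on day 4 in white cells and 7.25, 7.19 and 3.08 on day 8 (difference 2.49, adjusted p = 3.3e-06, limma). Of the 5 highest differences named, Egr1 (3.15) and Btg2 (2.74) are early response genes too. Egr1 had 120, 127 and 131 FPKM on day 4 and 199, 204 and 191 on day 8 in brown cells, and 157, 147 and 158 against 27.1, 26.8 and 13.8 in white cells.

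Muscle markers differed as well. All 10 skeletal muscle markers had a difference called higher (median 0.84 against -0.91), and Sln, the sarcolipin gene of muscle, had the highest difference named (3.25), with 8.5, 7.12 and 5.96 FPKM on day 4 in white cells and 0.523, 0.536 and 0.373 on day 8. Contractile genes had 9 of 16 lower and none higher, and Acta2 went from 39.0, 37.5 and 41.4 FPKM to 330, 314 and 160 in white cells (difference -2.05). Macrophage markers had 8 of 10 lower. Car3 (3.04), a carbonic anhydrase of fat, was not called in brown cells and was lower on day 8 in white cells, and Lrg1 (2.73) moved in opposite directions. At the other end, Mmp3 (-3.13) kept 374, 448 and 153 FPKM on day 8 in white cells, and Cxcl14 (-2.51), which fell from 107, 99.5 and 101 FPKM to 17.2, 16.2 and 16.1 in brown cells, stood at 56.0, 60.0 and 61.1 and 54.8, 57.9 and 22.3 in white cells. Dio3 (-3.03), which inactivates thyroid hormone, Cck (-2.98) and Fmo2 (-2.68) complete the 5 lowest named.

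**Figure D5:**
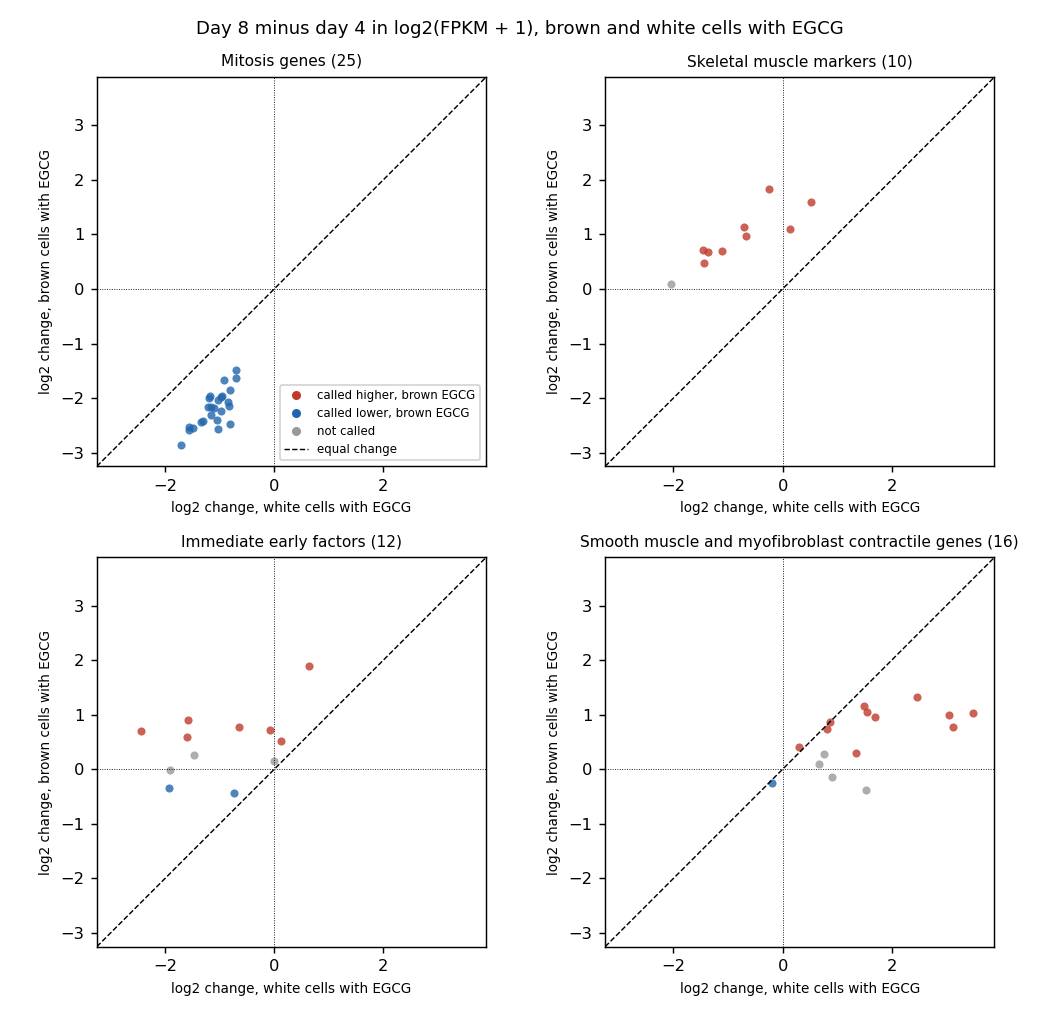
Log2 change of FPKM + 1, day 8 minus day 4, in brown cells with EGCG (vertical axis) against white cells with EGCG (horizontal axis) for the genes of 4 lists. Points are genes coloured by the call in brown cells and the dashed line marks equal change. The 25 mitosis genes all lie below the line and the 10 skeletal muscle markers all above it.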

How the data were processed

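RNA was extracted with Trizol and sequenced as standard Illumina libraries. The deposited values are FPKM, which the authors computed per gene, and the submitters' processing notes name FastQC 0.11.9, HISAT2 2.2.0, HTSeq 0.11 and build mm9. The strand setting of the counting is not given in the sources used here. The 2 deposited FPKM tables were made separately and some levels differ between them, so the main test used the first table alone. Replicate 3 enters values, directions and counts of groups that do not overlap, which therefore mix the tables, and the alternatives with both tables carried the replicate block. Values were whole numbers of reads at a tolerance of 0.01 once multiplied by gene length and depth, and read totals come from that step.

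Genes with at least 1 FPKM in at least 2 of the 16 libraries of the first table were tested (14095 of 37310) with limma 3.58.1 in R 4.3.3 on log2(FPKM + 1), with 1 mean for each of the 8 groups, a trend in the prior variance and Benjamini-Hochberg adjustment. The residual degrees of freedom were 8 and the prior added 3.37. Means and SDs are over replicates 1 and 2 (n = 2). Differences of day changes were tested in the same fit. Gene coordinates are those of GENCODE vM1 on mm9. Limits for counts of 0 (3 reads) cover counting error only, while the SE of a change comes from the spread between libraries in the fit.

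Replicates 1 and 2 differed by more than sampling noise, with a median squared difference of 1.87 (day 4) and 1.66 (day 8) in units of sampling variance, where noise alone gives 0.455. Over 3 replicates the deviations of same-numbered libraries from their group means correlated between days at 0.791, 0.793 and 0.938, with replicate 3 from the other table. Within the first table, the difference of replicates 1 and 2 correlated between days at 0.00315. Alternatives changed the pseudocount, filter, scaling, libraries, block, test and spread.

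Named genes were, for the day change, the 12 highest and 12 lowest called genes with a mean of at least 5 FPKM on the higher day and the same direction in the 3 replicates. For each difference, 5 in each direction were named. These had a mean of at least 5 FPKM in any group compared and the same direction of the difference in the 3 replicates. Such genes numbered 6224 of the 7803 called against the control and 961 of the 2816 called against white cells. From each list, its first 3 genes, its 2 called members with the largest change in each direction, and members where 5 or fewer were counted were named. A further gene that this rule would name is not reported here. The gene lists and named groups were chosen with earlier results of these data known.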

Additional observations from a re-analysis of the deposited data

Results flagged for a closer look

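The results below stand out because the change from day 4 to day 8 in brown cells with EGCG differed from that of another group in a direct test of the difference (limma). Against brown control cells this held for 7803 genes, and against white cells with EGCG for 2816.

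Against the control, the day change was higher under EGCG for Prl2c2 by 4.07 on the log2(FPKM + 1) scale, for Fabp3 by 3.00, for Igfbp5 by 2.94, for Hist1h4n, a histone H4 gene, by 2.85 and for Peg10 by 2.70. The replicate 3 values of Hist1h4n were 2.95 FPKM on day 4 and 4.85 on day 8 and overlap with those of replicates 1 and 2, which are in the other table. The differences were -5.67 for Aspg, -5.40 for 8430408G22Rik, -5.33 for Rbp4, -5.30 for Cox7a1 and -5.17 for Selenbp1.

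Against white cells with EGCG, the differences were 3.25 for Sln, 3.15 for Egr1, 3.04 for Car3, 2.74 for Btg2 and 2.73 for Lrg1. They were -3.13 for Mmp3, -3.03 for Dio3, -2.98 for Cck, -2.68 for Fmo2 and -2.51 for Cxcl14. Sln was under 1.5 FPKM in every library of brown cells with EGCG.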

How the results depend on the processing

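The 24 named day changes, 10 differences from the control and 10 differences from white cells kept their direction and their side of the threshold under every alternative run, except that Aspg was not tested with the stricter filter. They had been chosen as the largest in the main test with replicate 3 in the same direction, and the alternatives use the same libraries. Their stability therefore says little about the other called genes. The replicate block within the first table gave 8098 called day changes (8019 of them also called without it, in the same direction), 7748 differences from the control and 2723 from white cells. With both tables and the replicate block the counts were 3476, 2205 and 633, and with only the groups compared the last was 431. Without replicate 3 of WAT day 8 with EGCG, an alternative chosen after seeing the data, they were 8828, 8462 and 3660. Leaving out 1 library at a time gave 6924 to 7024 called day changes, 6997 to 7266 differences from the control and 1939 to 2215 from white cells. The 2-fold counts depended on the pseudocount: 1131 genes in the main test became 1907 with a pseudocount of 0.1 and 1996 with voom on recovered reads, and for the differences 1444 became 2168 and 2167, and 425 became 696 and 707. Of the list medians under the alternatives, 134 moved by more than the spread between replicates and 3 that were over 0.1 in size changed sign. The others moved by less than that spread. The 3 were those of white identity genes (0.22 to -0.0063 with voom), collagens (-0.10 to 0.0061 with quantile normalization) and MHC class II genes (0.13 to -0.3381 with the stricter filter). Medians near 0 also took the other sign with 1 library left out: oxidative phosphorylation (up to 0.03, and 0.04 with both tables), citric acid cycle (up to 0.01), Wnt (0.04), endothelial (-0.02) and mesothelial genes (-0.01). With voom the interferon median was 2.78, that of cyclic AMP genes -1.14 and of complement genes -1.12, and with quantile normalization that of matrix proteins was 0.35. With the stricter filter the TGF-beta median was 0.07, that of restraining factors 0.0028 and of proteases 0.07. The cause was not tested. With 2 replicates per group in the test, an unrecorded batch shared by the libraries of a day cannot be told apart from the day.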
